A study of Homo sapiens with 5 samples.

Results

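In VCaP cells, 1425 ERG regions found in both replicates stood alone, with no other such region within 200 kb on either side. They were chosen by position alone. Overlapping peaks of the 2 ERG lists were merged into 16095 regions, the 9366 regions holding a peak of each replicate were taken as shared, and a shared region was kept when it lay over 200 kb, edge to edge, from every other one and on an autosome other than 17 and 19. On the 20 autosomes kept, 8094 shared regions were found, of which these isolated regions were 17.6% and the other 6669 serve as the comparison. All 1425 enter every value below.

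The lists come from chromatin immunoprecipitation followed by sequencing (ChIP-seq) of VCaP cells without treatment. VCaP is an established line from a prostate cancer, with the TMPRSS2-ERG fusion and a mutant p53, and all groups share both. The antibody ab92513 against ERG was used in 2 samples, and DO-1 (sc-126) against p53 in 2 others. The lists hold 14337 and 11237 ERG peaks and 227 and 138 p53 peaks, in replicate order, and no read counts, so the depth behind a peak is not known from them. For p53 the study describes longer peak sets than those deposited, and the threshold behind the deposited lists is not known, so each p53 share below counts the deposited peaks only. Positions are hg19 and counted from 1.

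ERG is an ETS family transcription factor that binds DNA around a GGAA core. The TMPRSS2-ERG fusion places it under an androgen-responsive promoter, so that prostate tumour cells make it at high levels. Bound sites of such factors often lie close together in stretches rich in genes and enhancers, and a site far from any other is the less usual case.

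A few isolated regions can be tied to a gene through sequence. The supplementary material of the study lists sites of 25 bases, with hg19 positions, that resemble the stretch of the CTNNB1 promoter used as its first binding probe for mutant p53. CTNNB1 encodes beta-catenin, the transcriptional coactivator of the Wnt pathway. The copy of that list used here is shortened, so sites in it are named and not counted against other regions. Among the legible sites, 10 lay wholly inside an isolated ERG region, and 8 of these had exactly 1 match in GRCh38. Of the 8, 6 lay 40 to 184 bp from the start of a gene's representative transcript (MANE Select, GENCODE release 44), on GRCh38. The study took these sites from its own p53 peaks and kept those with at least 15 bases equal to the probe, so neither that likeness nor their nearness to gene starts describes the isolated regions at large. In 7 of the 10 regions no deposited p53 peak was present. The probe and 6 of the sites are shown to set the isolated regions beside the sequence the study worked with, and capitals mark the bases of a site that equal the probe's at the same position.

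CTNNB1 probe: gccccctcgcgccccgccccttgtc

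CTNNB1, chr3:41240800-41240824 (hg19, plus strand): GtgCCCagGCaCCCCaCCCCggccC

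PPP1CC, chr12:111180786-111180810 (hg19, minus strand): GCCCCCTCcCGCgCCcCCtaTgGcC

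MTF2, chr1:93544745-93544769 (hg19, plus strand): tCCtCCgCGCtCgCCGCgCagTccC

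YTHDC1, chr4:69215846-69215870 (hg19, minus strand): tCCCCgcCcCtCtCCGCaCtgTGaC

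NRIP1, chr21:16437146-16437170 (hg19, plus strand): GCCCCggCGaGCtCttCCCtccGaC

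No gene start within 5 kb, chr16:33963242-33963266 (hg19, plus strand): GCCtCtTgGCGCCCCctCgaTgcTC

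The PPP1CC site shared 18 bases with the probe, the chromosome 16 site 16 and the other 4 shared 15 each. For the chromosome 16 site, only starts of representative transcripts were looked for within 5 kb, and starts of other transcripts were not considered. PPP1CC encodes a catalytic subunit of protein phosphatase 1, MTF2 a Polycomb-associated protein, YTHDC1 a nuclear reader of methylated adenosine in RNA, and NRIP1 a corepressor of nuclear receptors. In GRCh38 the middle of the site lay 184 bp (CTNNB1), 102 bp (PPP1CC), 83 bp (MTF2) and 50 bp (YTHDC1) before the transcript start. The NRIP1 site lay 163 bp after it, in the untranslated part of an exon. The CTNNB1 site was intronic to longer CTNNB1 transcripts, and the PPP1CC, MTF2 and YTHDC1 sites overlapped no annotated transcript. The remaining site near a gene start was on chromosome 8, 40 bp before LRATD2 and within an intron of the long noncoding RNA PCAT1.

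These regions differed widely in ERG width. The CTNNB1 region had ERG peaks of 937 bp in replicate 1 and 1053 bp in replicate 2, the NRIP1 region 1041 bp and 767 bp, and the YTHDC1 region 618 bp and 567 bp. The PPP1CC region had 540 bp and 443 bp. The MTF2 region was narrow, with 268 bp and 346 bp. In order of position along the chromosome, the shared ERG regions before and after the CTNNB1 region lay 321 kb and 762 kb away, those of YTHDC1 648 kb and 1481 kb, those of NRIP1 1036 kb and 500 kb, those of PPP1CC 240 kb and 294 kb, and those of MTF2 261 kb and 266 kb.

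The CTNNB1 promoter is shown because the deposited ERG peaks of both replicates and a p53 peak of replicate 1 meet there. The hg19 site sat 374 bp inside the start of the ERG region chr3:41240426-41241622 and 798 bp before its end. The same 25 bases lie in the RefSeq promoter of CTNNB1 (GRCh38.p14), of which the first 132 bases are given, with the site and the only GGAA core of this stretch (TTCC on the strand shown) in capitals.

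CTNNB1 promoter, chr3:41199255-41199386 (GRCh38.p14, plus strand): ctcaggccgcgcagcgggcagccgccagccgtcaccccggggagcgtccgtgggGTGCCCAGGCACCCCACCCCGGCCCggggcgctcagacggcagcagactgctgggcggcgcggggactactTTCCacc

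In this promoter the probe sequence, which the study identified as bound by mutant p53, began at the base after the printed stretch. The listed site in capitals is another sequence, which equals the probe at 15 of 25 bases. The probe sequence followed it after 53 bases and matched GRCh38 once. The study also describes a putative ERG motif next to the probe sequence. Over the 250 bases before the RefSeq start, GGAA occurred 2 times on either strand, and 92.7% of 35116 RefSeq promoters held it in a window of that length. The longer ETS motif CCGGAAGT, whose letters include GGAA, occurred 0 times on either strand, against 3.42% of the promoters with at least 1. These matches describe letters in 1 window.

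The distribution over chromosomes follows from the rule, since density decides isolation, and is given without a test. The isolated share of shared regions was highest on chromosome 13 (55 of 183, 30.1%), chromosome 18 (41 of 149, 27.5%) and chromosome 5 (96 of 374, 25.7%). It was lowest on chromosome 22 (19 of 192, 9.90%), chromosome 21 (19 of 189, 10.1%) and chromosome 11 (60 of 597, 10.1%). By number, chromosome 2 had most isolated regions (149), followed by chromosome 1 (144) and chromosome 3 (123). Per Mb of the stretch spanned by all peaks, isolated regions ranged from 0.388 on chromosome 16 to 0.639 on chromosome 20, which is 1.65-fold, while all shared regions ranged 2.98-fold, from 1.91 on chromosome 18 to 5.70 on chromosome 22. Isolated regions per Mb thus varied less between autosomes than shared regions did. The stretch runs from the first to the last peak of any list, and unsequenced bases inside it were not taken out. Gene density and copy number were not analysed here.

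**Figure D1:**
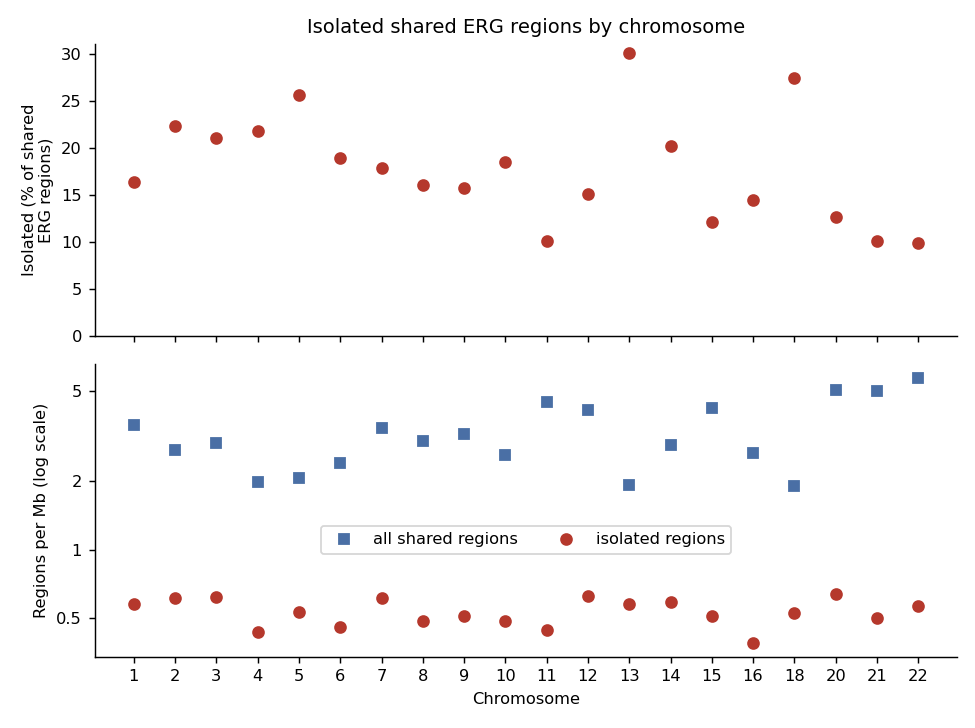
Isolated regions by chromosome (x axis). Above, the percent of shared ERG regions that are isolated, from 9.90% on chromosome 22 to 30.1% on chromosome 13, and below, regions per Mb on a log axis, where isolated regions (circles) span 1.65-fold and all shared regions (squares) 2.98-fold.

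Most isolated regions were only moderately remote. The nearest other shared region lay a median of 330 kb away (quartiles 252 kb and 529 kb), against 42.0 kb for the other shared regions. It lay at most 300 kb away for 602 isolated regions (42.2%), between 300 and 500 kb for 431 (30.2%), between 500 kb and 1 Mb for 276 (19.4%) and over 1 Mb for 116 (8.14%). Within 1 Mb on each side, isolated regions had a median of 4 other shared regions (quartiles 2 and 7) and the others 11 (7 and 16). These distances and numbers follow from the rule and are given as a description. They followed one another along the chromosome in 693 runs uninterrupted by another shared region. In these, 351 stood singly between non-isolated regions or the end of the chromosome, 153 runs had 2 and 189 runs had 3 or more, the last with 768 isolated regions in all (53.9%). The longest run held 10 isolated regions over 15.5 Mb of chromosome 6, from 64283036 to 79788352. Runs of 9 lay on chromosome 1 (6.90 Mb), chromosome 11 (12.2 Mb) and at 2 places on chromosome 4 (9.30 Mb and 10.1 Mb).

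The remotest isolated region was chr13:86086663-86086881, whose nearest shared neighbour, also isolated, lay 4.90 Mb away. Its peaks were narrow, with 219 bp in replicate 1 and 214 bp in replicate 2. That neighbour, chr13:90988857-90989106, was next at 4.21 Mb, with peaks of 239 bp and 196 bp. Another region of chromosome 13, chr13:66336863-66337099, had 3.23 Mb and peaks of 237 bp and 187 bp. Chromosome 13 thus gave 3 of the 10 remotest regions, and all 3 were narrow, with a narrower peak that exceeded those of 9.8%, 3.4% and 0.4% of all shared regions, in the order given. The other 7 lay on chromosomes 2, 3, 4, 5, 6, 8 and 14, with distances of 2.59 Mb to 3.67 Mb. Of these, chr14:81687284-81687934 was wide (651 bp and 597 bp), as was chr5:162932443-162932957 (513 bp and 472 bp), and chr4:190861748-190862027 was narrow (237 bp and 277 bp). The chromosome 4 region was the last shared one of its chromosome, so its distance was measured on 1 side only. A single-replicate ERG peak lay 109 kb from it. Remote regions thus included both narrow and wide ones.

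Distance to any ERG peak, including peaks of 1 replicate alone, gave a partly different order. The first was again chr13:86086663-86086881, with no ERG peak of either list within 4.90 Mb. It was followed by chr3:93781531-93782008 (3.30 Mb, peaks of 478 bp and 379 bp), chr8:33342429-33342971 (2.67 Mb, 543 bp and 322 bp), chr13:66336863-66337099 (2.29 Mb) and chr16:33963055-33963498 (2.24 Mb, 429 bp and 233 bp). At the limit itself, the 3 isolated regions closest to it had a neighbour at 200105 bp, 200188 bp and 200194 bp, and the 3 other shared regions closest to it at 199265 bp for 1 and 199032 bp for a pair that were each other's neighbour. The former were chr11:69265435-69265669 (peaks of 234 bp and 186 bp), chr1:245916958-245917372 (415 bp and 199 bp) and chr9:118353909-118354308 (400 bp and 250 bp). The latter were chr9:117870085-117870475 (391 bp and 342 bp), chr2:118571997-118572444 (436 bp and 402 bp) and chr2:118771477-118771774 (267 bp and 217 bp).

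Peak width was not used to choose the members. Isolated regions were slightly narrower than the other shared regions in both replicates. In replicate 1 their median width was 373 bp (95% interval of the median 364 to 379 bp, n = 1425) against 409 bp (404 to 414 bp, n = 6669). In replicate 2 it was 301 bp (292 to 308 bp) against 332 bp (328 to 337 bp). The intervals did not meet in either replicate, and the ratios of the medians were 0.912 and 0.907. The ranges overlapped almost entirely. In a pair of 1 isolated and 1 other region drawn from the list, the isolated one was the narrower in 55.6% of all pairs in replicate 1 and in 56.6% in replicate 2, where 50% would mean no tendency. Peaks of at least 520 bp, the widest 20% of the replicate 1 list, were found in 21.0% of the isolated regions (Wilson 95% interval 18.9% to 23.2%) and in 28.4% of the others (27.4% to 29.5%). At the like limit of 452 bp in replicate 2 the shares were 18.0% and 24.4%. Within chromosomes, the isolated median was the lower on 18 of 20 autosomes in replicate 1 and on 19 of 20 in replicate 2, and on the same 18 in both. The intervals treat regions as independent and cover counting error only. Regions of 1 cell line in 2 samples are not replicates, so no p-value is given for any comparison of regions.

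**Figure D2:**
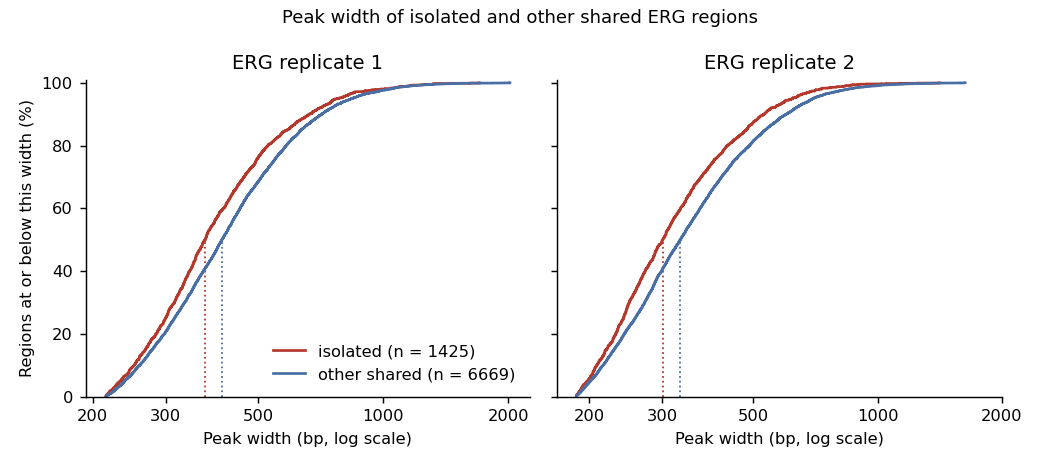
Cumulative percent of regions (y axis) at or below a peak width (x axis, bp, log scale) in ERG replicate 1 and replicate 2, for isolated (red) and other shared regions (blue). Dotted lines mark the medians, 373 and 409 bp on the left and 301 and 332 bp on the right, and the curves run close together over the whole range.

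Among isolated regions, width showed no course with distance, while shared regions with a nearer neighbour were wider. In replicate 1 the median was 413 bp for shared regions whose nearest neighbour lay under 10 kb away, 413 bp at 10 to 50 kb, 414 bp at 50 to 100 kb and 397 bp at 100 to 200 kb. Among isolated regions it was 372 bp at 200 to 300 kb, 377 bp at 300 to 500 kb, 372 bp at 500 kb to 1 Mb and 366 bp at over 1 Mb. In replicate 2 the corresponding medians were 338, 336, 331 and 319 bp, and then 302, 302, 305 and 288 bp. Among isolated regions the intervals of all 4 distance classes overlapped in each replicate. Across the limit, from 100 to 200 kb to 200 to 300 kb, the intervals were apart in replicate 1 (388 to 406 bp and 358 to 384 bp) and overlapped in replicate 2 (309 to 329 bp and 292 to 312 bp).

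**Figure D3:**
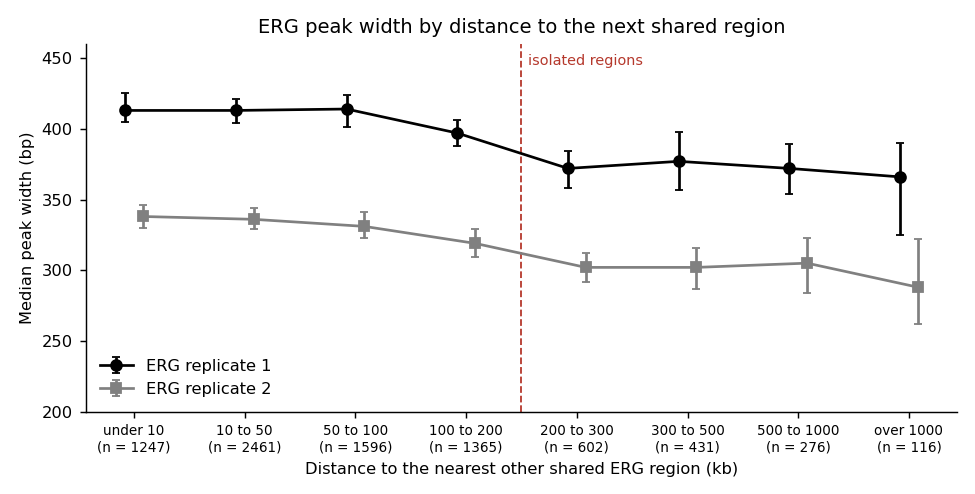
Median ERG peak width in bp (y axis) by distance to the nearest other shared region in kb (x axis) in replicate 1 (circles) and replicate 2 (squares), with 95% intervals of the median. Classes right of the dashed line are isolated regions, where medians were 366 to 377 bp and 288 to 305 bp.

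The widest isolated regions were ranked by the narrower of their replicate peaks. First came chr5:10161-11775, the first shared region of its chromosome, with 1615 bp in replicate 1 and 1413 bp in replicate 2. A p53 peak of each replicate (1621 bp and 1656 bp) covered this whole region. Next were chr14:102552764-102554093 (1318 bp and 1245 bp), chr8:126441371-126442521 (1147 bp and 1129 bp) and chr20:21283574-21284730 (1045 bp and 1022 bp). The CTNNB1 region was sixth by this measure, after chr2:73114029-73115219 (1174 bp and 939 bp), and its narrower width exceeded that of 99.2% of all shared regions on the autosomes kept. The other 4 of the first 10 lay on chromosomes 1, 2, 12 and 22, with narrower peaks of 858 to 896 bp. These regions had a shared neighbour at 201 to 489 kb, so that none of the widest 10 was among the remotest 10.

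Inside a region the replicates placed ERG alike whether it was isolated or not. The midpoints of the overlapping peaks lay a median of 34 bp apart in isolated regions (quartiles 15.5 and 63 bp) and 34.5 bp in the others (15.5 and 67 bp). The overlap covered a median of 73.1% of the joint width in isolated regions and 74.1% in the others. Within classes of equal width the values ran together, with 65.8% against 65.6% in the narrowest class and 82.6% against 82.2% in the widest. Replicate 1 gave the wider peak in 76.9% of isolated and 74.6% of other regions. More than 1 peak of a replicate lay in 17 isolated and 76 other regions, for which the widest was used.

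Peaks found in 1 replicate alone took no part in the choice of members, though they come from the same lists. Isolated regions had fewer such regions around them. Within 200 kb, 839 isolated regions (58.9%, 56.3% to 61.4%) had at least 1, against 78.5% of the other shared regions (77.5% to 79.4%) and 75.0% of all 8094. The difference was -19.6 percentage points (Newcombe 95% interval -22.3 to -16.9). Within 50 kb the shares were 23.2% and 37.1%, a difference of -13.9 points (-16.3 to -11.4). Within 10 kb they were 7.51% and 11.7% (difference -4.23 points, -5.72 to -2.57), and within 1 kb 2.39% and 3.49% (-1.11 points, -1.93 to -0.0899). Isolated regions were thus lower in each window.

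**Figure D4:**
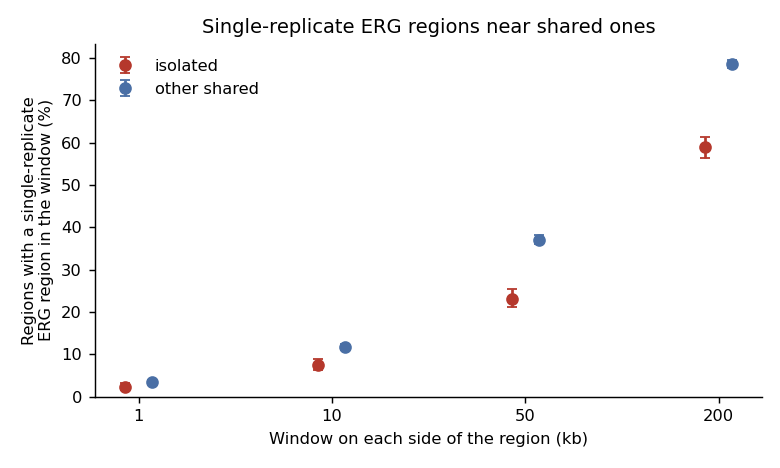
Percent of regions with a single-replicate ERG region nearby (y axis) by window on each side (x axis, kb), for isolated (red) and other shared regions (blue) with Wilson 95% intervals. Isolated regions are lower in every window, from 2.39% against 3.49% at 1 kb to 58.9% against 78.5% at 200 kb.

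Many isolated regions were thus not alone once peaks of 1 replicate are counted. A mean of 0.998 single-replicate regions lay within 200 kb of an isolated region and 1.81 of another shared region. Of the isolated regions, 459 (32.2%) had 1 single-replicate region within 200 kb, 232 (16.3%) had 2, 110 (7.72%) had 3 and 38 had 4 or more, up to 8. Regions of replicate 1 alone were near 708 isolated regions (49.7%) and regions of replicate 2 alone near 320 (22.5%), beside the longer list of replicate 1. The remaining 586 isolated regions (41.1%) had no further ERG peak of either list within 200 kb. Their median widths were 366 bp (353 to 377 bp) and 293 bp (285 to 305 bp), and those of the 839 with such a neighbour 376 bp (366 to 390 bp) and 307 bp (295 to 317 bp), intervals that overlap in replicate 1 and in replicate 2 alike.

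ERG regions without neighbours were also found again less often. This was examined in sets that do not depend on recurrence. Of 1161 merged ERG regions with no other merged region of either list within 200 kb, 50.5% were shared (47.6% to 53.3%), against 58.4% of the other 12864 (57.5% to 59.2%). Judged within its own list, a peak of replicate 1 with no other within 200 kb overlapped a replicate 2 peak in 717 of 1224 cases (58.6%, 55.8% to 61.3%), and the other replicate 1 peaks did in 65.8% (64.9% to 66.6%). For replicate 2 the shares were 1092 of 1381 (79.1%, 76.8% to 81.1%) and 84.6% (83.8% to 85.4%). The intervals were apart in all 3 comparisons. Peaks isolated in their own list were also narrower. Their median was 326 bp in replicate 1, where the other peaks had 353 bp, and 281 bp in replicate 2, where the others had 309 bp. The part of width in the difference was not tested.

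p53 is a tumour suppressor that binds DNA as a tetramer, and hotspot mutations of its DNA-binding domain, as in VCaP cells, disrupt binding to its usual sites. A p53 peak of either replicate overlapped 14 isolated regions, 0.982% (0.586% to 1.64%). The share over all shared regions of these autosomes was 1.36%, and that of the other shared regions 1.44% (96 of 6669, 1.18% to 1.75%). The difference of -0.457 percentage points had an interval of -0.963 to 0.252, which includes 0, so a difference in p53 overlap was not detectable with lists of this length. The difference changed when all peaks of 1 ERG list stood in for the shared regions, which brings in peaks of 1 replicate alone. With ERG replicate 2, p53 met 0.434% of the peaks isolated in that list and 1.42% of the others. The difference was -0.987 points (-1.35 to -0.426). With ERG replicate 1 the shares were 0.817% and 1.05% (-0.233 points, -0.659 to 0.469). These sets differ from the shared regions described above. Among the shared regions, the shares with p53 replicate 1 alone were 0.982% and 0.990%, and with p53 replicate 2 alone 0.421% and 0.705%. Counting only regions met by p53 peaks of both replicates, the isolated share was the higher, with 6 regions (0.421%) against 17 (0.255%), a difference of 0.166 points whose interval of -0.108 to 0.670 includes 0. Within 200 kb, 41 isolated regions (2.88%) had a p53 peak, overlaps included. The rule keeps shared regions, and the p53 peaks on them, out of that window, so this number is not set against the others.

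p53 overlap was most frequent among the widest ERG regions of both sets. Shared regions were put in 4 equal classes by their narrower ERG peak, with limits at 245, 308 and 414 bp. Overlap needed 1 bp anywhere in a region, so a wider region offers more bases to meet a peak. No correction for length was made. Of the isolated regions in the widest class 7 of 271 met p53 (2.58%, 1.26% to 5.23%), and 52 of 1744 of the others did (2.98%, 2.28% to 3.89%). In the narrowest class the numbers were 3 of 440 (0.682%) and 9 of 1590 (0.566%), in the second class 1 of 397 (0.252%) and 14 of 1622 (0.863%), and in the third class 3 of 317 (0.946%) and 21 of 1713 (1.23%). The intervals of the sets overlapped in every class. Between the narrowest and the widest class the intervals were apart among the other shared regions (0.298% to 1.07% in the narrowest) and overlapped among the isolated ones (0.232% to 1.99%).

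**Figure D5:**
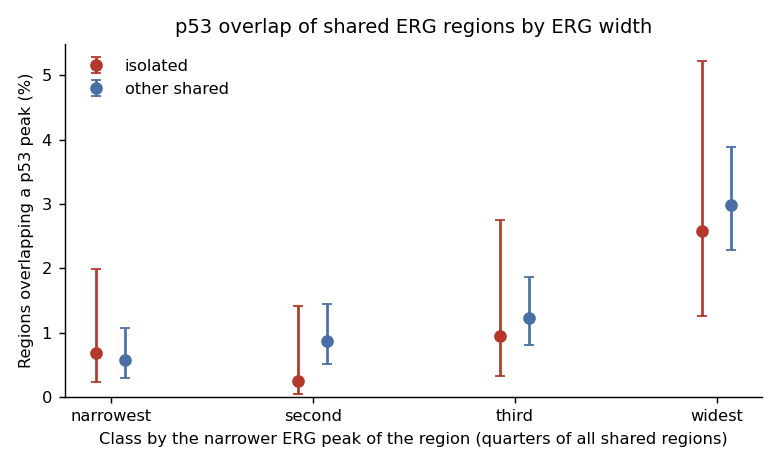
Percent of shared ERG regions that overlap a p53 peak (y axis) in 4 equal classes by the narrower ERG peak (x axis), for isolated (red) and other regions (blue), with Wilson 95% intervals. The shares in the widest class, 2.58% and 2.98%, lie above those in the narrowest, 0.682% and 0.566%, and the intervals of the sets overlap in each class.

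The 14 isolated regions that met p53 fell into unlike kinds. In 6 of them p53 peaks of both replicates were present, in 8 a peak of replicate 1 alone and in 0 a peak of replicate 2 alone. Among the 96 other shared regions with p53, 17 had both, 49 replicate 1 alone and 30 replicate 2 alone. This split was looked at after the values had been seen and was not tested.

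Of the 6 isolated regions with p53 in both replicates, 5 bordered a stretch of over 2 Mb without any shared ERG region. At chr16:33963055-33963498, between gaps of 2251 kb and 13532 kb, ERG peaks measured 429 bp and 233 bp and p53 peaks 462 bp and 286 bp. Its listed sequence is shown above. At chr7:61968934-61969650, after a gap of 5794 kb, ERG peaks of 694 bp and 692 bp met p53 peaks of 263 bp and 742 bp. At chr2:92290533-92291089, the ERG peaks were 320 bp and 557 bp, the p53 peaks 292 bp and 333 bp, and 8 single-replicate ERG regions lay within 200 kb. It shared a gap of 2415 kb with chr2:89874873-89875339, where ERG peaks of 458 bp and 464 bp met p53 peaks of 274 bp and 747 bp. At chr20:26188740-26189164 the ERG peaks were 409 bp and 400 bp, the p53 peaks 420 bp and 370 bp, and the gap 3913 kb. The sixth was the region near the start of chromosome 5, with p53 peaks of 1621 bp and 1656 bp. Among the 245 isolated regions beside such a gap, 5 met p53 (2.04%, 0.875% to 4.69%). Of the other 1180, 9 did, 1 of these in both p53 replicates and 8 in replicate 1 alone. Where the longer gap was at most 500 kb, the share was 1.47%. It was 0.656% at 500 kb to 1 Mb and 0% at 1 to 2 Mb. The class of at most 500 kb holds the chromosome 5 region, whose gap of 240 kb was measured on 1 side only. The intervals of all these classes overlapped. The gap limit was chosen after the values had been seen, and other shared regions beside such gaps were not counted. The distance of the 6 regions to centromeres and unsequenced stretches, their repeat content and the alignment of reads there were not analysed here.

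The 8 isolated regions with p53 in replicate 1 alone included 2 of the 6 with a listed site near a gene start, CTNNB1 and PPP1CC. For the CTNNB1 promoter the study reports a mutant p53 peak in its own ChIP-seq of VCaP cells. It also reports mutant p53 there by ChIP with quantitative PCR and, together with ERG, by sequential ChIP. Purified p53 mutants of the DNA-binding domain bound the probe sequence in its assays. Deleting the genomic region of that sequence in another prostate cancer line lowered CTNNB1 expression. Absence from the deposited list of replicate 2 says only that no peak was called there. The CTNNB1 region held a p53 peak of 221 bp, from 41240869 to 41241089, wholly inside the ERG region and past the end of the listed site. On GRCh38 the probe sequence follows that site after 53 bases. With the same spacing in hg19 the probe would lie inside this p53 peak, but its hg19 position was not read. The PPP1CC region held one of 430 bp, also wholly inside. At chr14:31676528-31677603 a p53 peak of 185 bp lay inside an ERG peak of 1076 bp in replicate 1, where replicate 2 had more than 1 peak, the widest of 486 bp. At chr1:230202552-230203113 the overlap was 123 bp, at chr2:113032868-113033239 it was 266 bp and at chr3:123679979-123680362 it was 259 bp. The last 2 met p53 at their edge only, chr9:95963979-95964247 by 6 bp and chr15:29130900-29131410 by 1 bp. The median ERG widths of the 14 were 455 bp and 454 bp, against 371 bp and 300 bp for isolated regions without p53, and 10 of the 14 lay above the isolated median in each replicate.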

How the data were processed

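Per the labels, ERG and p53 (DO-1) ChIP-seq samples of untreated VCaP cells, 2 each, were grouped by antibody, and an input sample was not analysed here. The authors called peaks with MACS2 on each sample after alignment with Bowtie2 (2.3.3.1 in the processing notes, another version in the methods). The deposited lists give the chromosome, start, end and name of each peak in 4 columns, with no score, p-value or read count, so a stricter threshold could only be stood in for by width, and peaks called weakly and strongly weigh the same. The build was taken as hg19 from the processing notes. Across the 4 lists, 304 of 25939 peaks, on 15 chromosomes, end past the GRCh38 chromosome ends, so GRCh38 positions were not used with the lists, nothing was converted, and genes were named only through exact matches of listed sequences to GRCh38. Sequence of the regions, and genes near them, were otherwise not analysed here.

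Peaks overlapping by at least 1 bp were merged, and distances were taken edge to edge. Members and comparisons were chosen with earlier results of these data known. The regions named by position are the 10 remotest, the 10 widest, all 14 that met p53, 3 on each side of the limit and the 5 farthest from any ERG peak. Regions with a listed site were added after they had been seen. Shares carry Wilson, differences Newcombe and medians order-statistic 95% intervals. Whether the numbered replicates were separate cultures is not in the labels, though the study calls its ChIP-seq replicates biological. Merging, the choice of isolated regions and the counting of regions within a distance were tested on simulated data, and the other steps were not. Python 3.11.15, numpy 2.4.6, scipy 1.17.1 and matplotlib 3.10.9 were used.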

Additional observations from a re-analysis of the deposited data

How the results depend on the processing

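Of 36 alternatives, 30 were planned and 6, those that count single-replicate regions as neighbours, leave out regions beside gaps of over 2 Mb or ask for p53 peaks of both replicates, were chosen after seeing the data. In 20 the value moved less than its error or, for the number of regions, less than 1.5 times, and in 16 it moved more. A limit of 100 kb gave 2790 isolated regions, a width ratio (mean of the replicates, 0.909 as reported) of 0.923 and 65.6% with a single-replicate region within 200 kb, and a limit of 500 kb gave 392, 0.913 and 49.5%. With single-replicate regions counted as neighbours 586 isolated regions remained, by construction, with a width ratio of 0.896. Peaks of at least the median width gave a ratio of 0.964, p53 overlap of 2.02% (other shared regions 2.21%) and single-replicate neighbours in 51.7%. A window of 50 kb gave 23.2%. Leaving out 1 ERG replicate put all peaks of the other list in place of the shared regions, recurring or not. It gave 1224 to 1381 isolated peaks, width ratios of 0.909 to 0.922 and p53 overlap of 0.434% to 0.817%. The lower overlap was without ERG replicate 1, where the other peaks had 1.42%. There the interval of the difference, -1.35 to -0.426 points, did not include 0. Leaving out 1 p53 replicate gave 0.421% to 0.982%, the lower without p53 replicate 1. The width ratio stayed below 1 in all 9 alternatives (0.896 to 0.964), and the p53 share of isolated regions below that of the others in 12 of 13. The exception was overlap with p53 peaks of both replicates, 0.421% against 0.255%. The ratio's error is the SD between 2 replicates, 0.00379, which is small. No paired analysis was possible because no value here rests on a fitted model. Absence from a list says only that no peak was called.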

Other observations

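The other listed sites in isolated regions are given here as values. Those at chr12:74213-74237 and chr15:102501895-102501919 each had 6 exact matches in GRCh38, and their regions were the first and the last shared ERG region of their chromosome, with ERG peaks of 737 bp and 582 bp, and of 663 bp and 652 bp. The site at chr9:68726177-68726201 had 1 match and no representative gene start within 5 kb, and its region had ERG peaks of 374 bp and 322 bp. In all, 21 isolated regions and 19 other shared regions were the first or last of their chromosome, with a shared neighbour on 1 side.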
